A study of Homo sapiens with 2 samples.

Results

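Collagens are the triple-helical proteins of the extracellular matrix, and 38 of the genes that encode their chains were followed here in A549, a cell line from an adenocarcinoma of the human lung with features of alveolar epithelium, grown as a monolayer or as spheroids. The members are the listed genes with a collagen chain name other than COL7A1 and COL17A1, which belong to the anchoring complex and the hemidesmosome, and they are 38 of 19775 genes with a probe set of their own. For each gene 1 probe set was used, that of highest mean log2 signal over both arrays, and each gene was placed in a collagen class. There was 1 Affymetrix Human U133 plus 2.0 array for each culture. Monolayer cells were kept for 12 days, attached, in DMEM with 10% FBS. Spheroid cells were kept for 12 days, unattached, in DMEM/F12 without serum, to which EGF at 20 ng/ml, bFGF at 10 ng/ml and N2 supplement were added. Attachment, base medium, serum and growth factors thus differed together and cannot be told apart, and both groups come from the same established line with no genetic change stated in the labels. In the labels, the description field gives a hepatoma line and a compound for both samples, against the titles, the cell line field and the methods.

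With 1 array per culture there is no replicate check, so no test was made and no difference below carries a p-value. The signals are MAS5 values on a linear scale, already scaled by the authors, with a mean of 499.9 on each array once the lowest and highest 2% are left out. Signals under the median of an array, 108 in monolayer culture and 119 in spheroid culture, were raised to that median, which is called the floor. A ratio with 1 array at the floor is a lower bound, and no ratio is given where both are. Of all genes, 66.9% exceeded the floor in 1 culture or both. The robust SD of the log2 ratios of spheroid over monolayer signal was 0.53 for the 11528 genes above it in both. Between the 2 brightest probe sets of a gene the SD of the difference in this ratio was 0.50, from 5453 genes. A smaller signal from a culture can come from fewer cells that express a gene or from less RNA per cell, and these cannot be told apart here.

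Fibrillar collagens build the tensile fibres of connective tissue, and fibril-associated collagens sit on their surface. Type IV collagen forms the sheet-like network of basement membranes, on which epithelia such as the alveolar lining rest, and its chains assemble into trimers of fixed composition inside the cell. Transmembrane collagens are held in the plasma membrane, and beaded-filament collagen VI forms fine filaments around cells. Fibroblasts are the main source of fibrillar collagen in lung, while epithelial cells contribute chains of the basement membrane.

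The collagen chains went both ways between the cultures, with COL21A1 and COL16A1 higher in spheroid culture and the paired basement membrane chains COL4A1 and COL4A2 lower. COL13A1 was also past 3-fold higher on the probe set used, but its probe sets disagreed in direction. Of the 38 genes, 21 exceeded the floor in 1 culture or both and 17 were at the floor in both. Of the 21, 3 were at least 3-fold higher in spheroid culture, where 2.34% of all genes above the floor were, 1 was at least 3-fold lower, against 2.11% of all genes, and 17 lay between. The 3 higher genes were all at the floor in monolayer culture, so each could be counted only because its spheroid signal was high. By any amount 13 were higher, where 52.8% of all genes above the floor were, and 8 were lower, against 47.2%. Of the 21 genes, 17 were above the floor in both cultures. COL5A3, COL13A1, COL16A1 and COL21A1 were above it in spheroid culture only, so the floor fixed their direction as higher. No member was above it in monolayer culture only, so the split by direction and the median below lean to the higher side. At a limit of 2-fold, 5 were higher, against 6.86% of all genes, and 2 were lower, against 5.50%. Their log2 ratios had a median of 0.45, beside 0.036 for all genes above the floor. Probe sets with names ending in _s_at or _x_at can match more than 1 transcript. With these left out the collagen median was -0.028 over 15 genes. That value is the ratio of COL6A1, a bound, since its spheroid signal was then at the floor. COL1A1, COL4A5, COL5A3, COL13A1, COL18A1 and COL21A1 have no ratio under that setting. The sign of the median thus depends on which genes and probe sets are kept. The study's own table of genes higher in spheroid culture was made on these 2 arrays and holds COL4A3, COL6A1, COL12A1, COL13A1, COL14A1, COL16A1 and COL28A1, so their direction there is not independent evidence. Of these, COL14A1 and COL28A1 were at the floor here on every probe set. The study's folds for COL12A1 (8.19) and COL4A3 (3.06) match probe sets that were at the floor here in both cultures. Its fold for COL6A1 (10.63) matches a probe set other than the one used here.

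**Figure D1:**
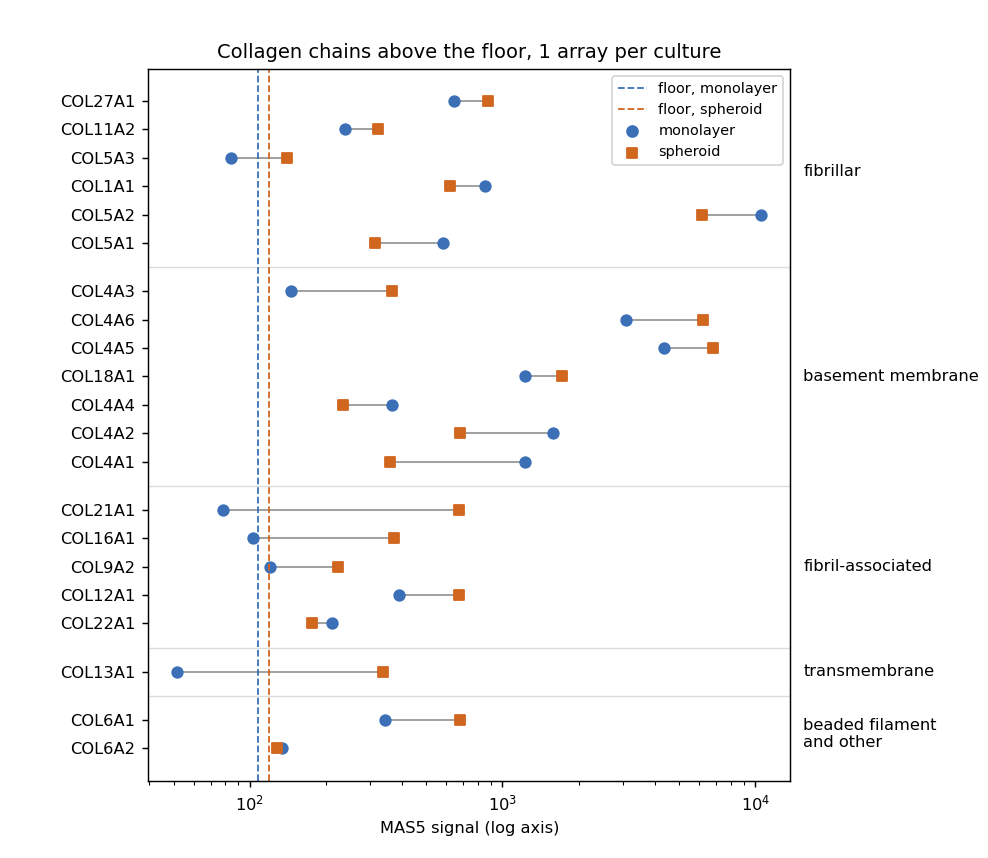
MAS5 signal on a log axis for the 21 collagen genes above the floor in 1 culture or both, by class, with circles for monolayer culture, squares for spheroid culture and dashed lines for the floors of 108 and 119. COL21A1, COL16A1, COL13A1 and COL5A3 start left of the monolayer floor, and the squares of COL4A1 and COL4A2 lie left of their circles.

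The 4 collagen classes and the remaining chains differed in how many members could be read. Of 11 fibrillar genes, 6 were above the floor, with 3 higher and 3 lower in spheroid culture and a median log2 ratio of -0.041. Of 8 basement membrane genes, 7 were above it, with 4 higher and 3 lower and a median of 0.48. Of 9 fibril-associated genes, 5 were above it, with 4 higher and 1 lower and a median of 0.89. Of 3 transmembrane genes, COL13A1 alone was above it. Of the 7 genes of collagen VI, VIII, X and XXVIII, COL6A1 and COL6A2 were above it. Medians and splits by direction over so few genes are given as a description. Of these genes, 1 in the fibrillar class and 2 among the fibril-associated were bounds that could only be higher. By any amount, 52.8% of all genes above the floor were higher in spheroid culture. The basement membrane median was -0.64 over 5 genes with sets ending in _s_at or _x_at left out, where COL4A5 and COL18A1 have no ratio, and the fibrillar median was 0.43 over 11 genes with no floor.

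The type IV chains went both ways, with COL4A1 and COL4A2 lower on every probe set. All 6 were above the floor in both cultures, 3 higher and 3 lower, and their median log2 ratio was 0.00055. In the human genome these genes lie in head-to-head pairs that share the stretch between their starts, COL4A1 with COL4A2 on chromosome 13, COL4A4 with COL4A3 on chromosome 2 and COL4A6 with COL4A5 on chromosome X. In 2 of the 3 pairs both genes were higher or both were lower in spheroid culture on the probe sets used. Of all genes above the floor, 52.8% were higher and 47.2% lower. Whether a shared stretch bears on direction was not tested. The stretches between the annotated starts are shown as a description. They are RefSeq sequence of GRCh38.p14, plus strand, 5′ to 3′, without transcribed bases, and capitals mark CCAAT and GGGCGG on either strand, which do not overlap in them.
COL4A1 and COL4A2, chr13:110307158-110307283: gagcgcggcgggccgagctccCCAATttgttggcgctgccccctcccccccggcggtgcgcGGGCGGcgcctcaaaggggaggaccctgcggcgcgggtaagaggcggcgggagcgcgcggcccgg
COL4A4 and COL4A3, chr2:227164489-227164623: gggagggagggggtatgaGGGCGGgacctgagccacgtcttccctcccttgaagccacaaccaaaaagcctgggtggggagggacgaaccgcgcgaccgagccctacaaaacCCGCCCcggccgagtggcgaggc
COL4A6 and COL4A5, chrX:108439588-108439837: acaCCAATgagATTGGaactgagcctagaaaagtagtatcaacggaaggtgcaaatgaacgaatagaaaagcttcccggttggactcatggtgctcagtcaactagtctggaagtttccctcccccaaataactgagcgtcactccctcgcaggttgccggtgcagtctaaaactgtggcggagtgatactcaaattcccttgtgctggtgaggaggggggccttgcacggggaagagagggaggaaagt

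The starts of COL4A1 and COL4A2 are 126 bases apart, those of COL4A4 and COL4A3 135 bases, and those of COL4A6 and COL4A5 379 bases, of which the 250 next to COL4A5 are printed. The stretch of COL4A1 and COL4A2 had 80.2% G and C, with 1 CCAAT and 1 GGGCGG. The median over all 35116 RefSeq windows of 126 bases before a start was 60.3%. Of those windows, 21.1% held CCAAT and 34.6% held GGGCGG on either strand. The stretch of COL4A4 and COL4A3 had 68.1% G and C against a median of 60.0% for windows of 135 bases. It held 2 GGGCGG matches and no CCAAT. At least 1 GGGCGG was in 35.5% of such windows and at least 1 CCAAT in 22.1%. The printed bases of COL4A6 and COL4A5 had 51.2% G and C against a median of 58.0% for windows of 250 bases, with 2 CCAAT matches and no GGGCGG. At least 1 CCAAT was in 32.0% of windows of that length and at least 1 GGGCGG in 42.6%. TATAAA was in none of the printed stretches and in 5.87%, 6.13% and 10.7% of windows of 126, 135 and 250 bases. These letters describe the windows and say nothing of which factor acts there.

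COL4A1 had a signal of 1233 in monolayer culture and 359 in spheroid culture, and COL4A2 had 1581 and 676. These genes encode the chains of the most widespread type IV trimer. COL4A1 was 3.44-fold lower and COL4A2 was 2.34-fold lower. Both had a further probe set, with signals of 442 and 162 for COL4A1 and 435 and 204 for COL4A2, so all 4 probe sets of the pair were lower in spheroid culture. With a floor at the 75th percentile of each array the log2 ratio of COL4A1 was -1.33 in place of -1.78, a bound, since its spheroid signal lies under that floor.

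COL4A5 and COL4A6, whose products can assemble into a trimer found in a restricted set of basement membranes such as those of bronchial epithelium and smooth muscle, were both higher in spheroid culture on the probe sets used. COL4A5 had signals of 4374 and 6817 and was 1.56-fold higher. Its only other probe set, at 36.4 and 65.2, was at the floor. COL4A6 had 3086 and 6222 and was 2.02-fold higher. Its second probe set was also higher, with 839 and 1471, while the third was lower, with 234 and 156, and the geometric mean of the 3 gave a log2 ratio of 0.41 against 1.01. The log2 ratio of COL4A5, 0.64, is close to the robust SD over all genes.

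COL4A3 and COL4A4, chains of the type IV trimer of the glomerular and alveolar basement membranes, went in opposite directions on the probe sets used. COL4A3 had signals of 145 and 364 and was 2.51-fold higher in spheroid culture, while its 6 other probe sets were at the floor in both cultures. COL4A4 had 365 and 234 and was 1.56-fold lower, with its 2 other probe sets at the floor. Each gene thus rests on 1 probe set.

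**Figure D2:**
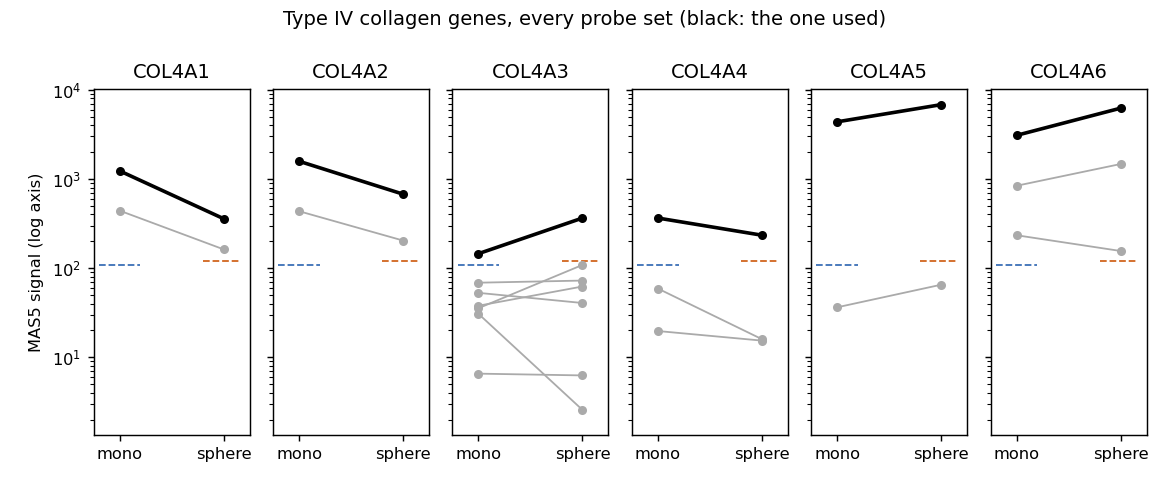
MAS5 signal on a log axis in monolayer (mono) and spheroid (sphere) culture for every probe set of the 6 type IV collagen genes, 1 line per probe set, black for the one used, with short dashed lines for the floors. All lines of COL4A1 and COL4A2 run down, those of COL4A5 run up, and COL4A6 has 2 lines up and 1 down.

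COL18A1 and COL15A1 encode multiplexins, heparan or chondroitin sulfate collagens of basement membrane zones, and the first is the source of endostatin. COL18A1 had signals of 1233 and 1717 and was 1.39-fold higher in spheroid culture, and its second probe set, at 1045 and 1390, was higher too. COL15A1 was at the floor on its only probe set, with 31.3 and 27.6.

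Among fibrillar collagens the type V chains COL5A1 and COL5A2 were lower in spheroid culture. The minor chains COL27A1 and COL11A2 were higher by less than 2-fold on the probe sets used, while other probe sets of COL27A1 were past 2-fold. Type V collagen is a minor fibril component that sets fibril diameter. COL5A2 had signals of 10564 in monolayer culture and 6173 in spheroid culture and was 1.71-fold lower, and its other probe set, at 3857 and 2510, was lower as well. COL5A1 had 583 and 313 and was 1.86-fold lower, and its 2 other probe sets, at 389 and 353 and at 228 and 172, were also lower. COL5A3, which encodes a less widespread chain of type V, had 84.0 and 141, at least 1.30-fold higher, with its other probe set at the floor. All 5 probe sets of COL5A1 and COL5A2 were thus lower, by 1.10-fold to 1.86-fold.

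COL27A1, a fibrillar chain of cartilage and developing tissues, had signals of 641 and 876 and was 1.37-fold higher. Its other probe sets above the floor were higher by more, with 212 and 477 in the first and 456 and 1197 in the second, ratios of 2.25-fold and 2.63-fold. COL11A2, a chain of cartilage type XI collagen, had 239 and 323 and was 1.35-fold higher, and its second probe set had 114 and 169.

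Of the genes of type I and type III collagen, the main fibrillar collagens of connective tissue, COL1A1 was above the floor in both cultures, and COL1A2 and COL3A1 were at the floor on the probe sets used. COL1A1 had signals of 852 and 618 and was 1.38-fold lower on the probe set used, whose name ends in _x_at. Another read 347 and 450.4, a further one 84.6 and 199, and the 2 others, at 31.5 and 45.2 and at 107 and 41.3, were at the floor. The geometric mean of its 5 probe sets gave a log2 ratio of 0.060 in place of -0.46, so no direction can be given for COL1A1. COL1A2, whose chain completes the type I trimer, was at the floor on all 3 probe sets, the brightest reading 9.98 and 40.3. COL3A1 was at the floor on the probe set used, with 97.3 and 76.1, and 1 of its 4 others was above it in monolayer culture, with 120 and 54.2. COL2A1, COL11A1 and COL24A1 were at the floor on each of their probe sets.

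Fibril-associated collagens held the highest ratio of the group. COL21A1, on chromosome 6 at 56056590 to 56394128 in GRCh38.p14 and known from vessel walls and other tissues, had a signal of 78.1 in monolayer culture and 674 in spheroid culture and was at least 6.23-fold higher. COL16A1, on chromosome 1 at 31652263 to 31704017, encodes a chain that links fibrils and binds integrins. It had 103 and 373 and was at least 3.44-fold higher. Both genes have 1 probe set on this array, so no second reading exists. The name of the COL21A1 set ends in _s_at, so it can match more than 1 transcript. With such sets left out COL21A1 has no ratio. With a floor at the 75th percentile the log2 ratio of COL21A1 was 0.50 in place of 2.64, and COL16A1 was at that floor in both cultures.

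COL12A1, which encodes a chain on the surface of type I fibrils, had signals of 389 and 675 and was 1.74-fold higher on the probe set used. Of its 4 other probe sets, 1 read 147 and 60.9, 1 read 122 and 104, and 2 were at the floor, so 2 of the 3 above the floor were lower. COL9A2, a cartilage chain, had 121 and 224 and was 1.86-fold higher, with its other probe set at the floor. COL22A1, a chain of tissue junctions, had 211 and 177 and was 1.20-fold lower, while another of its probe sets, at 42.2 and 141, was at least 1.31-fold higher. COL9A1, COL9A3, COL14A1 and COL19A1 were at the floor on every probe set. The 4 probe sets of COL14A1 read from 4.83 to 98.0.

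COL13A1, on chromosome 10 at 69801906 to 69959144, encodes a transmembrane collagen of focal contacts and the neuromuscular junction. It had signals of 51.7 in monolayer culture and 338 in spheroid culture and was at least 3.12-fold higher on the probe set used. Its 2 other probe sets disagreed. One read 102 and 166, at least 1.54-fold higher, and the other read 184 and 50.3, at least 1.54-fold lower, so the direction of COL13A1 depends on the probe set. The log2 ratio of 1.64 lies just past the limit of 1.58 and fell within it when each array was divided by its median, at 1.50, and with quantile normalization, at 1.52. With the geometric mean of the 3 probe sets it was 0.39. The members nearest to the limit on either side were COL13A1 above it and COL4A3 under it at 1.33. COL23A1 and COL25A1, the other transmembrane chains, were at the floor on every probe set.

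COL6A1, which encodes a chain of beaded-filament collagen VI, had signals of 344 and 682 and was 1.98-fold higher on the probe set used. Its other 7 probe sets were dim. One of them read 24.5 and 261, at least 2.41-fold higher, another read 121 and 53.0, and 5 were at the floor. With sets ending in _s_at or _x_at left out, the log2 ratio of COL6A1 was -0.028 in place of 0.99. It is a bound from the set at 121 and 53.0, whose log2 ratio without a floor was -1.20. COL6A2 had 134 and 129, almost equal signals just above the floors. COL6A3, which completes the classical trimer, was at the floor with 62.3 and 12.7. COL8A1, COL8A2, COL10A1 and COL28A1 were at the floor on every probe set.

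The 17 members at the floor on both arrays had signals from 6.14 to 108 on the probe sets used, and 1 of their 37 probe sets, that of COL3A1, was above the floor. Over all members, 42 of 102 probe sets were above the floor. Of the 13 genes with 2 or more such probe sets, 7 had all of them on the same side, namely COL4A1, COL4A2, COL5A1, COL5A2, COL11A2, COL18A1 and COL27A1. The other 6, COL1A1, COL4A6, COL6A1, COL12A1, COL13A1 and COL22A1, had some higher and some lower. For 8 of the 21 genes above the floor only 1 probe set was above it.

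**Figure D3:**
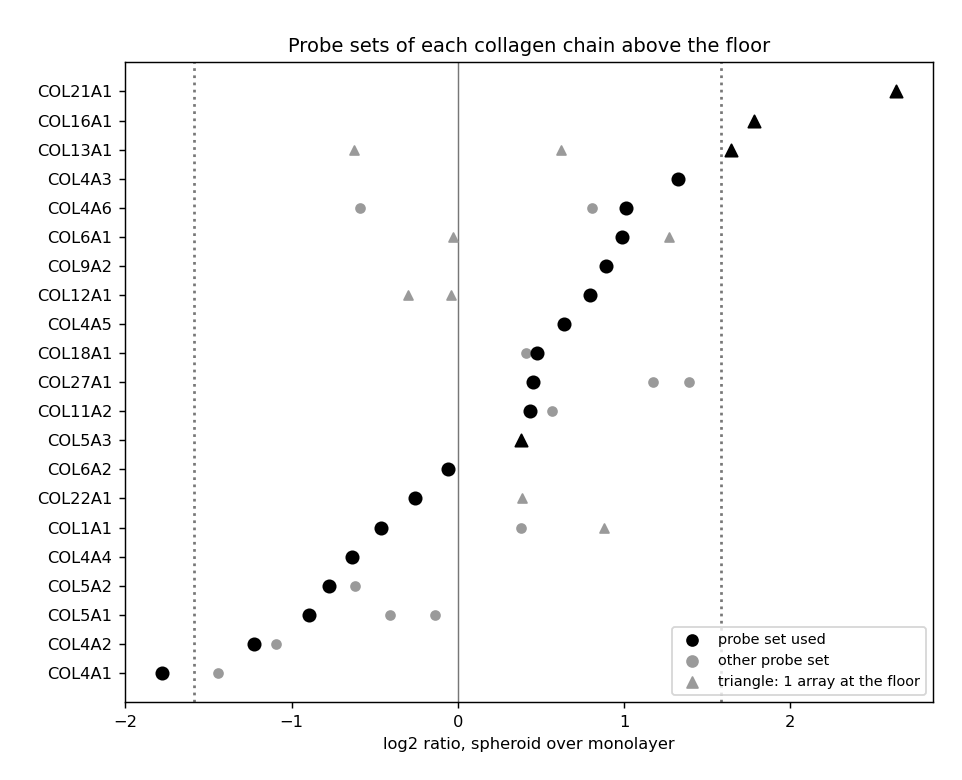
Spheroid signal over monolayer signal as a log2 ratio, 1 point for each probe set above the floor, by gene, black for the probe set used and grey for others, with triangles where 1 array is at the floor and dotted lines at 3-fold. The probe sets of COL4A1 and COL4A2 all lie left of -1, while those of COL13A1, COL6A1, COL12A1 and COL1A1 lie on both sides of 0.

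The genes that modify, fold, export, cleave and cross-link collagen chains, or carry the TGF-beta signal to their promoters, were mostly within 3-fold. Of 62 such genes measured, 53 were above the floor, 1 was at least 3-fold higher, against 2.34% of all genes, 3 were at least 3-fold lower, against 2.11%, and 49 lay between. Their median log2 ratio was 0.16, beside 0.036 for all genes above the floor. For COLGALT2 and TXNDC5 no probe set carried only that gene, and they were not analysed here.

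Collagen chains are hydroxylated on proline and lysine in the endoplasmic reticulum before the helix closes. All 14 measured genes of this step were above the floor, with 9 higher and 5 lower and a median log2 ratio of 0.19. P3H2, a prolyl 3-hydroxylase known to act on type IV collagen, had signals of 2902 and 857 and was 3.39-fold lower, the only 1 of them past 3-fold. Its other probe set stayed at the floor, and the geometric mean of the 2 gave a log2 ratio of -0.69.

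All 15 measured genes of folding and export were above the floor, and their median log2 ratio was 0.12. CREB3L1, a membrane-bound transcription factor that drives procollagen genes and the secretory machinery, had signals of 93.5 and 521 and was at least 4.82-fold higher, with its other probe set at the floor. Its log2 ratio was 0.13 with a floor at the 75th percentile. SERPINH1, the collagen chaperone HSP47, was named after its value was seen and had 2151 and 1981.

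Of 16 genes of procollagen cleavage and cross-linking, 7 were above the floor, 5 higher and 2 lower, with a median log2 ratio of 0.37. LOXL2, a lysyl oxidase known to cross-link type IV collagen, had 7192 and 2190 and was 3.28-fold lower, and its second probe set above the floor was lower too. The geometric mean over its 4 probe sets gave a log2 ratio of -0.85. Among 17 TGF-beta genes, all above the floor, 9 were higher and 8 lower, with a median of 0.27. SMAD3, the receptor-activated transcription factor of this pathway, had 3238 and 845 and was 3.83-fold lower, with all 4 probe sets lower.

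At a limit of 2-fold the 53 genes above the floor held 3 higher, against 6.86% of all genes, and 5 lower, against 5.50%. Chosen after their values were seen, they were CREB3L1, THBS1 (2.31-fold) and MIA3 (2.04-fold) on the higher side. With the geometric mean of the probe sets the log2 ratios of CREB3L1, THBS1 and MIA3 were 0.17, 0.40 and 0.66, against 2.27, 1.21 and 1.03. On the lower side were SMAD3, P3H2, LOXL2, TGFBI (2.83-fold) and FKBP10 (at least 2.33-fold). THBS1 encodes an activator of latent TGF-beta, MIA3 encodes the export receptor TANGO1 for procollagen, TGFBI is a TGF-beta-induced matrix protein and FKBP10 is a procollagen prolyl isomerase.

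**Figure D4:**
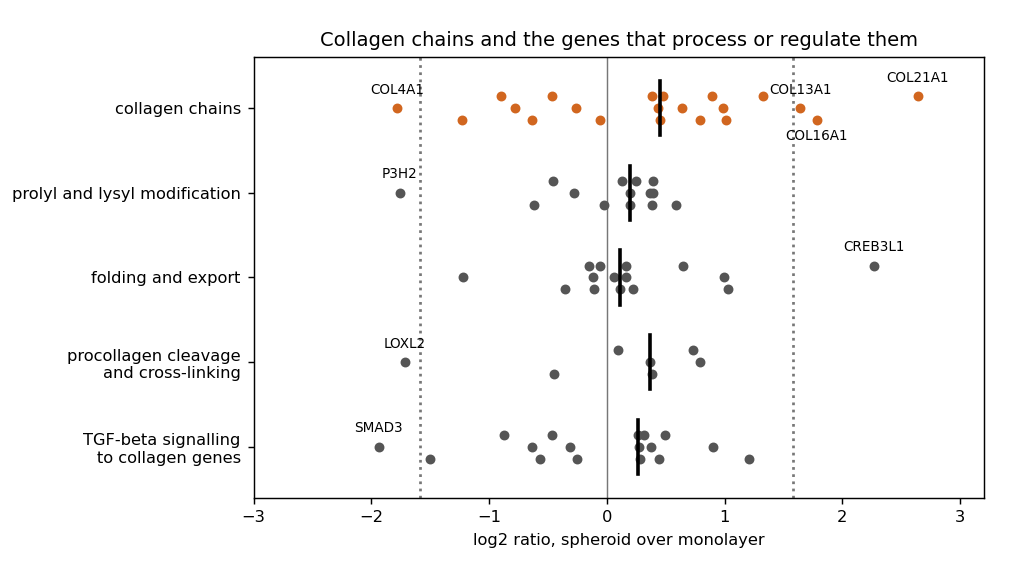
Spheroid signal over monolayer signal as a log2 ratio, for the collagen chains and for 4 lists of genes that process or regulate them, each point being 1 gene above the floor, with short bars at the list medians and dotted lines at 3-fold. Only P3H2, LOXL2 and SMAD3 lie past the lower line among the list genes and only CREB3L1 past the upper line.

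Marker lists of the cell types that a sample could hold were read in the same way. All 6 epithelial markers were above the floor, 1 at least 3-fold higher, against 2.34% of all genes, and 1 at least 3-fold lower, against 2.11%. KRT8 read 22924 in monolayer and 18884 in spheroid culture, KRT18 50068 and 39147, and KRT19, 4.64-fold higher, 191 and 889. KRT7, 3.75-fold lower, read 27459 and 7323 on the probe set used, while 1 of its 3 probe sets above the floor was higher in spheroid culture. Of 7 fibroblast markers, 6 were at the floor on the probe set used, among them LUM and PDGFRA, although 1 of the 2 probe sets of LUM was above it. DCN read 209 and 132 on the probe set used, while 2 of its 3 probe sets above the floor were higher in spheroid culture. The fibroblast list summed to 496 in monolayer and 460 in spheroid culture. All 5 endothelial markers, among them CDH5, VWF and KDR, were at the floor on every probe set, with signals from 5.20 to 51.1 on those used.

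The other lists held members well above the floor. Of 5 cartilage markers, 3 were above it and the list summed to 1383 and 4513. SOX9, a factor known to drive cartilage collagen genes, read 785 and 3989 and was 5.08-fold higher, while ACAN read 240 and 299, MATN3 212 and 86.1, and COMP was at the floor. Of 5 leukocyte markers, 4 were above the floor and the list summed to 1088 and 645. CD14 read 437 and 111 and was at least 3.66-fold lower, CD3E read 140 and 144, and PTPRC was at the floor on every probe set. Of 7 hepatocyte markers, 5 were above the floor, 2 were at least 3-fold higher, against 2.34% of all genes, and 0 lower, against 2.11%. The list summed to 1272 and 6881. ALB read 23.4 and 4639, SERPINA1 64.6 and 543, AFP 106 and 263, and APOA1 112 and 145. FGB, named after its value was seen, had the largest monolayer signal of the list, with 767 and 1179. APOA2 and TTR were at the floor. The part of these markers in the collagen values was not tested.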

How the data were processed

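RNA of 1 monolayer and 1 spheroid culture of A549 cells was measured on Affymetrix Human U133 plus 2.0 arrays. The deposited values of 54675 probe sets are signal intensities on a linear scale, which the authors made with MAS5 and GCOS per the labels (versions not given in the sources used here) and analysed further in GeneSpring GX. Probe sets were named by the platform annotation. Of the 41097 with 1 gene, 41043 took their current symbol through the Entrez identifier, and 1801 with several genes were left out. The floor, the median of each array without 62 control probe sets, the limit of 3-fold and the reading of 1 probe set per gene are as described above. No test was run. The collagen members, classes and gene lists were chosen with earlier results of these data known. The genes named are every member above the floor, of each other list those past 3-fold, at most 4 per direction, and of each marker list also the first 3. As alternatives the floor was dropped or set at the 25th or 75th percentile, arrays were quantile normalized or divided by their medians, limits of 2-fold and 5-fold were used, and genes were read by the geometric mean of their probe sets or without sets ending in _s_at or _x_at. Promoter windows came from RefSeq (GRCh38.p14) and held 28 of the 38 genes. The steps were tested on simulated arrays in which bright genes alone were shifted, by more than the limit of 3-fold. That test shifted no gene near the floor, so it does not cover the ratios given as bounds. Python 3.11.15, numpy 2.4.6, pandas 2.3.3 and matplotlib 3.10.9 were used. Precision is limited by there being 1 array per culture.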

Additional observations from a re-analysis of the deposited data

How the results depend on the processing

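The 3 collagen genes at least 3-fold higher became 6 with no floor, over all 38 genes, 2 with arrays divided by their medians, with quantile normalization and with the geometric mean of the probe sets, 0 with the floor at the 75th percentile, 1 without probe sets ending in _s_at or _x_at, 5 at a limit of 2-fold and 1 at 5-fold. The 1 gene at least 3-fold lower became 2 with no floor, 0 with the floor at the 75th percentile, 2 at 2-fold and 0 at 5-fold. At 2-fold, 6.86% of all genes above the floor were higher and 5.50% lower. No such share was worked out for the other settings. Their counts, also those of the collagen pathway below, thus cannot be set against all genes. The median log2 ratio of the collagen genes, 0.45, was 0.31 once arrays were divided by their medians, which shifted the median of all genes from 0.036 to -0.10, and -0.028 without probe sets ending in _s_at or _x_at. It lay from 0.36 to 0.46 under the other settings of floor, scaling and probe sets. No collagen gene past 3-fold changed sign under any setting that gave it a value. For COL21A1, COL16A1 and COL13A1 this is no check where the floor was at the median or higher. They were above it in spheroid culture only, which fixed their sign. COL21A1 and COL16A1 have 1 probe set each, so the geometric mean repeated their values. COL21A1 and COL13A1 had no value without probe sets ending in _s_at or _x_at, and COL16A1 and COL13A1 none with the floor at the 75th percentile. Among the genes within 3-fold, COL1A1 changed sign with the geometric mean and COL6A1 without probe sets ending in _s_at or _x_at. Of the 62 genes of the collagen pathway, the 3 at least 3-fold lower became 4 once arrays were divided by their medians, 1 with the geometric mean and 1 without probe sets ending in _s_at or _x_at, and the 1 higher became 2 with no floor and 0 with the geometric mean or the floor at the 75th percentile. The floor at the 75th percentile left 12 of the 21 genes with a ratio. Signals near the floor, and the lack of a second array, limit every ratio of COL21A1, COL16A1 and COL13A1. No paired analysis was possible because each culture has 1 array.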

Other observations

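Some collagen genes outside the list were also on the array. COL7A1, the anchoring fibril collagen, which the rule left out, read 532 in monolayer culture and 1771 in spheroid culture, 3.33-fold higher. COL20A1 read 126 and 128, both just above the floors. COL6A5, COL6A6 and COL26A1 were at the floor in both cultures, COL26A1 with 107 and 13.0.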
